A study of Arabidopsis thaliana with 16 samples.

Results

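Roots of the Arabidopsis thaliana genotype rhd6rsl1, which carries mutations in both RHD6 and RSL1, were compared with roots of the wild type Col-0, and the difference was averaged over untreated and ethylene-treated seedlings. The 8 libraries of this comparison, of 16 in the series, came from 4 groups of 2 biological replicates: untreated Col-0, untreated rhd6rsl1, Col-0 under ethylene and rhd6rsl1 under ethylene. Seedlings of all groups stood upright on MS medium for 6 d, and the treated ones then received 10 ppm ethylene for 4 h. RNA came from whole roots. The sources used here do not name the mutant alleles, nor say how many plants were pooled. Every locus was tested, and the average weighted both treatments equally. The other 8 libraries, ein3eil1 and ein3eil1rhd6rsl1 with and without ethylene, served for 1 further contrast: the same 2 genes mutated in plants that lack the ethylene transcription factors EIN3 and EIL1.

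A root hair is a long outgrowth of a single epidermal cell that enlarges at its tip and takes up water and nutrients. RHD6 and RSL1 are closely related basic helix-loop-helix (bHLH) transcription factors that start hair formation in cells already set aside for the hair fate, and roots lacking both make almost no hairs. They act upstream of further bHLH factors of the same family, RSL2 and RSL4, which drive hair growth. They also act upstream of LRL3, of the LRL factors, which act in hair growth too. Below these lie the genes of the hair itself: expansins, extensins, peroxidases and xyloglucan enzymes that build and loosen its wall, and the receptor kinases, small GTPases, ion channels and pumps that keep the tip growing. Ethylene promotes hair growth through EIN3 and EIL1.

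The libraries held 33.0 to 45.0 M counted reads, and levels are given as CPM, the count per M reads of the scaled library size. Replicates of a group correlated at r = 0.984 to 0.992 across loci in log CPM. The file codes carry a letter, S or Z, that the labels do not explain. Untreated rhd6rsl1 and treated Col-0 carry S, and untreated Col-0 and treated rhd6rsl1 carry Z, so genotype cannot be told apart from the letter within a treatment, while in the average an additive effect of the letter cancels. Replicate 1 of Col-0 under ethylene stood apart by its photosynthesis genes, which summed to 985 CPM over 17 markers against 253 to 489 CPM in the other 7 libraries.

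The mutated genes were examined first. RHD6 had 24.2 and 23.5 CPM in untreated Col-0 and 7.92 and 7.93 CPM in untreated rhd6rsl1, but 14.2 and 15.7 CPM in treated Col-0 and 14.8 and 15.6 CPM in the treated libraries labelled rhd6rsl1. RSL1 had 5.86 and 5.84 CPM in untreated Col-0 and 1.86 and 2.00 CPM in untreated rhd6rsl1, against 1.09 and 1.75 CPM in treated Col-0 and 1.75 and 1.24 CPM in the treated libraries labelled rhd6rsl1. Both genes were lower in untreated rhd6rsl1 without overlap, and their libraries overlapped under ethylene. The averaged log2 fold changes were -0.78 ± 0.07 for RHD6 (standard error, adjusted p = 2e-07) and -0.77 ± 0.16 for RSL1 (adjusted p = 0.0015). A mutated gene can still give reads without giving a working transcript, so this check does not settle the label of the treated libraries, and every direction below that draws on them rests on that label.

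Markers of hair cells separated the genotypes under both treatments. The 6 markers RSL4, EXPA7, EXPA18, COBL9, PRP3 and LRX1 summed to between 984 and 1483 CPM in the 4 Col-0 libraries, to 0.905 and 1.45 CPM in untreated rhd6rsl1 and to 128 and 131 CPM in treated rhd6rsl1. The 3 markers of non-hair cells, GL2, WER and MYB23, summed to 24.3 to 57.8 CPM in Col-0 and 25 to 57.6 CPM in rhd6rsl1. In whole roots, fewer cells of a type and less RNA per cell cannot be told apart.

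The averaged contrast was broad, and its large changes were mostly falls. With edgeR's quasi-likelihood test at an adjusted p below 0.05, 4969 of 22304 loci were called, which is 22.3% of those tested. Of these, 2565 fell in rhd6rsl1 (11.5%) and 2404 rose (10.8%). The balance shifted with size. Falls of at least 2-fold numbered 812 (3.64%) and rises 162 (0.726%). At least 4-fold changes numbered 478 (2.14%) and 27 (0.121%), and at least 16-fold changes 259 (1.16%) and 4 (0.0179%). All 4 rhd6rsl1 libraries lay below all 4 Col-0 libraries at 1360 loci (6.10%) and above them at 896 (4.02%). Together, the 478 loci that fell at least 4-fold held 1.60 to 2.54% of the scaled reads in Col-0, 0.0545 and 0.0548% in untreated rhd6rsl1, and 0.208 and 0.218% in treated rhd6rsl1. At 87 loci that fell, neither untreated rhd6rsl1 library had a read, and at 16 loci no rhd6rsl1 library had one. Leaving out any 1 library of the comparison, which leaves 1 library in a group, lowered the number of falls. The drop was largest without replicate 1 of untreated rhd6rsl1.

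**Figure D1:**
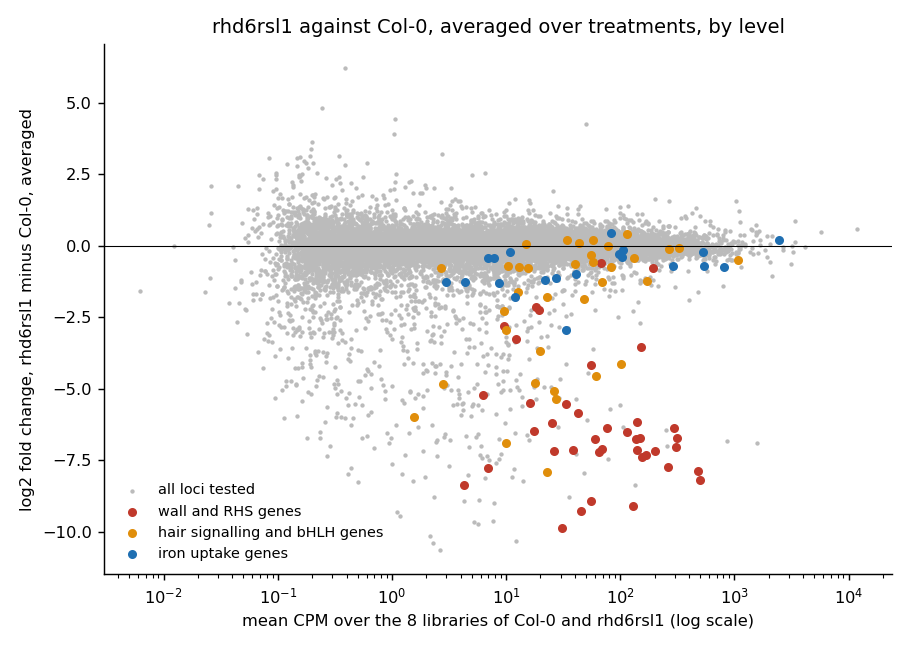
Averaged log2 fold change of rhd6rsl1 against Col-0 for each of the 22304 loci tested (y axis), by the mean CPM over the 8 libraries (x axis, log scale), with root hair wall and RHS genes, hair signalling and bHLH genes and iron uptake genes in colour. The median of all points is 0.001, while the wall and RHS genes form a tail reaching to a fitted -9.86, and 4 loci rose at least 16-fold against 259 that fell as much.

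Of the 9 bHLH factors of hair development, 7 fell, 1 rose and 1 was not called, beside 11.5% lower and 10.8% higher over all loci. Their median log2 fold change was -4.81 (-3.07 with a gene without reads in a group set at its bound), beside a median of 0.001 over all loci. RSL2, which drives hair elongation, had 31.4 and 28.3 CPM in untreated Col-0 and 9.99 and 9.28 CPM in treated Col-0, but 0.147 and 0.130 CPM in untreated and 0.0832 and 0.197 CPM in treated rhd6rsl1. Every rhd6rsl1 library lay far below every Col-0 library at RSL2, and the average was -6.90 ± 0.17 (adjusted p = 6.8e-15).

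RSL4, which sets how large a hair cell grows, had 14.9 and 17.9 CPM in untreated and 43.8 and 42.7 CPM in treated Col-0, against 0 and 0.156 CPM in untreated rhd6rsl1 and 11.3 and 11.6 CPM in treated rhd6rsl1. The genotypes did not overlap in the average, which was -4.81 ± 0.26 (adjusted p = 1.5e-10), but the gap was 217-fold without ethylene (6 reads in rhd6rsl1) and 3.77-fold with it. LRL3, of the LRL family, showed a like pattern, with 57.0 and 51.9 CPM in untreated and 45.5 and 39.9 CPM in treated Col-0, and 0.196 and 0.0259 CPM in untreated and 11.7 and 12.2 CPM in treated rhd6rsl1. Its relatives did not fall. LRL1 rose (log2 0.42 ± 0.06, adjusted p = 7.1e-05), with overlapping libraries, and LRL2 was not called (log2 0.11 ± 0.06, adjusted p = 0.24).

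The 2 remaining bHLH genes of the list, which the reference names only by locus, also fell in the average. AT2G14760 had 1.29 to 4.93 CPM in Col-0 and at most 0.0563 CPM in rhd6rsl1. AT5G43175 was low without ethylene, at 0.349 and 0.156 CPM in Col-0 and no read in rhd6rsl1 (at least 6.74-fold lower, against 3 reads over both libraries). Under ethylene it had 9.14 and 10.9 CPM in Col-0 and 0.998 and 0.901 CPM in rhd6rsl1. Its libraries overlapped between the genotypes only across treatments.

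**Figure D2:**
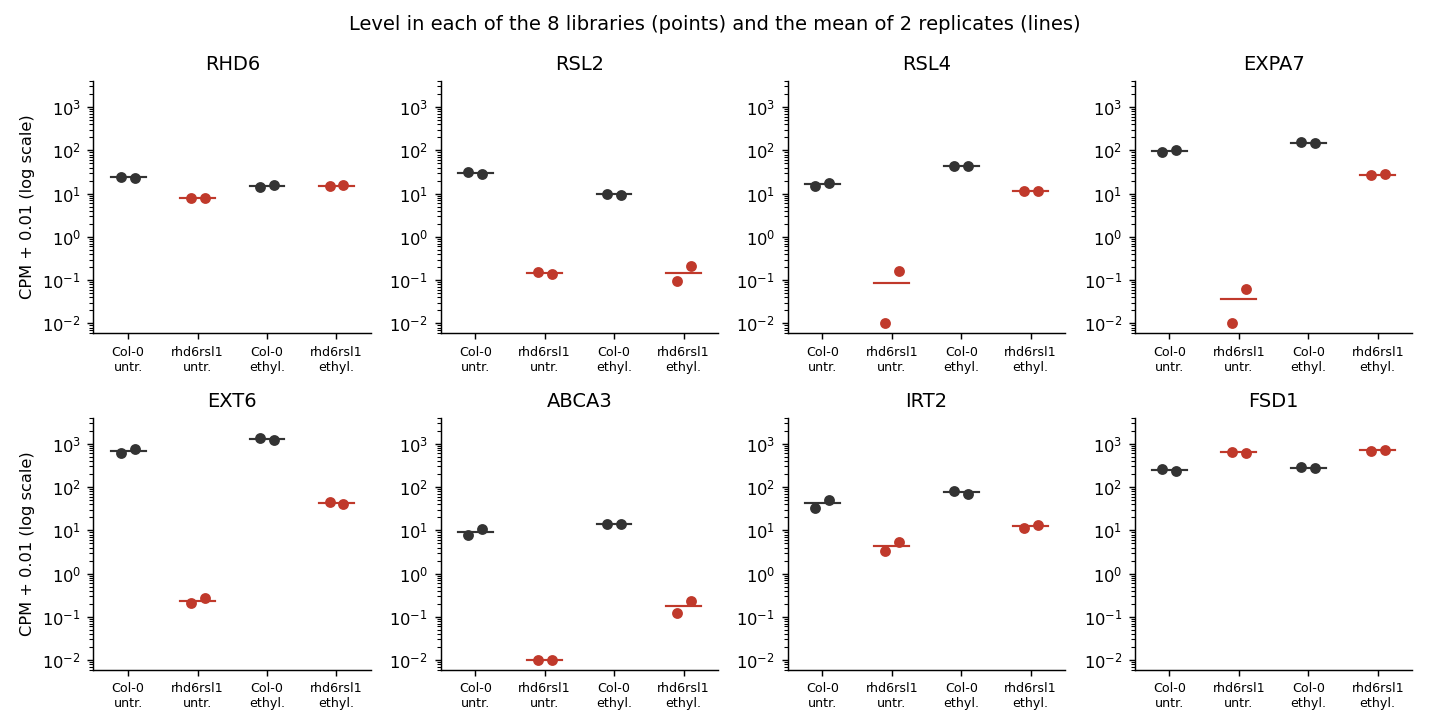
CPM plus 0.01 on a log scale for 8 genes in each of the 4 groups, with a point for each library and a line at the mean of 2 replicates. RHD6 overlaps under ethylene, RSL2 stays near 0.1 CPM in all 4 rhd6rsl1 libraries, RSL4, EXPA7 and EXT6 lie far higher in treated than in untreated rhd6rsl1, and FSD1 is higher in every rhd6rsl1 library.

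Of 12 genes that assign the hair and non-hair fates, which act before RHD6, edgeR's test called 5 lower and 0 higher, beside 11.5% lower and 10.8% higher over all loci, with a median of -0.18. At an unadjusted p below 0.05 it gave 6 lower and 0 higher, and DESeq2 called 5 and 0. MYC1, a bHLH partner in the fate complexes, was the exception in size, at 8.73 to 19.6 CPM over the 4 Col-0 libraries against 3.47 and 3.81 CPM in untreated and 1.64 and 1.18 CPM in treated rhd6rsl1. All its rhd6rsl1 libraries lay below all Col-0 libraries (log2 -2.55 ± 0.12, adjusted p = 2.8e-11). GL3, a bHLH factor of the same complexes, fell by 0.63 on the log2 scale, GL2, which holds back hair growth in non-hair cells, fell by 0.24, and both had overlapping libraries. EGL3 (-0.35, adjusted p = 0.049) and CPC (-0.29, adjusted p = 0.035), a mobile repressor that favours the hair fate, were near the threshold, and EGL3 was not called in 10 and CPC not in 8 of 14 alternative settings. WER, the MYB factor of non-hair cells, was not called (log2 0.16 ± 0.12, adjusted p = 0.37), nor was TTG1 (0.09 ± 0.07).

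All 25 genes of the hair wall list fell, beside 11.5% called lower over all loci. At all 25 the genotypes did not overlap, beside 6.10% of all loci with every rhd6rsl1 library below every Col-0 library. The median was -7.03. Extensins, the structural glycoproteins of the wall, were the most abundant. EXT6 had 600 and 754 CPM in untreated and 1352 and 1197 CPM in treated Col-0, against 0.196 and 0.259 CPM in untreated and 46.1 and 41.3 CPM in treated rhd6rsl1. EXT10 reached 1172 CPM in Col-0 and at most 0.489 CPM in untreated and 36.0 CPM in treated rhd6rsl1. EXT12, EXT13 and the extensin-like loci AT4G08400 and AT5G06630 gave averages from -7.72 to -6.37, and as extensins share repeats, reads may be split among them.

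Expansins loosen the wall as the hair bulges and grows. EXPA7 had 91.5 and 102 CPM in untreated and 155 and 148 CPM in treated Col-0, and 0 and 0.0518 CPM in untreated and 26.4 and 28.9 CPM in treated rhd6rsl1. Without ethylene this was a 3845-fold difference on 2 reads in rhd6rsl1 (95% counting interval 1064 to 31755), and with ethylene a 5.47-fold one. EXPA18, its close relative, was 654-fold lower without and 18.4-fold lower with ethylene.

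Among the xyloglucan enzymes, XTH26 had a fitted average of -9.86, or -8.09 with the group without reads set at its bound. It had 12.3 and 15.0 CPM in untreated and 115 and 105 CPM in treated Col-0, no read in untreated rhd6rsl1 (at least 362-fold lower, against 3 reads over both libraries) and 0.776 and 0.282 CPM in treated rhd6rsl1. XTH12, XTH13 and XTH14 averaged between -7.17 and -6.37, and XUT1, which adds galacturonic acid to hair xyloglucan, averaged -5.49. The proline-rich wall proteins PRP1 (-7.15) and PRP3 (-7.03), the arabinogalactan protein AGP3 (-6.75), the leucine-rich repeat extensin LRX1 (-6.74) and the GPI-anchored COBL9 (-5.84) fell in the same range.

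At 3 wall genes the fall was smaller than 16-fold. CSLD3, a cellulose synthase-like enzyme that hairs need to keep from bursting, had 233 to 261 CPM in Col-0 and 125 to 155 CPM in rhd6rsl1 (log2 -0.77 ± 0.08, adjusted p = 2e-06). LRX2, a paralogue of LRX1, had 70.8 to 87.7 CPM in Col-0 and 47.9 to 60.4 CPM in rhd6rsl1 (log2 -0.61 ± 0.09, adjusted p = 5.7e-05). The peroxidase AT4G26010 lay between, at 226 to 356 CPM in Col-0 and 21.9 to 25.8 CPM in rhd6rsl1 under either treatment.

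The peroxidases AT1G05240 and AT1G05250 are neighbours of near-identical expression, and reads may be shared between them. AT1G05240 had 216 to 310 CPM in Col-0, 0.244 and 0.156 CPM in untreated and 1.11 and 1.07 CPM in treated rhd6rsl1. Unlike the extensins and expansins, both stayed below 2 CPM in treated rhd6rsl1.

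Every one of the 19 loci that the reference table names root hair specific (RHS), genes first grouped by their activity in hair cells, fell without overlap, with a median of -6.47. Over all loci 11.5% were called lower, and 6.10% had every rhd6rsl1 library below every Col-0 library. RHS15 averaged -9.27, RHS6 -7.77 and RHS19 -7.33. RHS12 and RHS1 had no read in untreated rhd6rsl1, and their fitted averages of -8.90 and -8.35 came to -7.14 and -6.58 at the bound. RHS6, a receptor-like kinase, had 10.5 to 15.2 CPM in Col-0 and 0.0259 to 0.0845 CPM over all 4 rhd6rsl1 libraries. RHS12 instead had no read in untreated rhd6rsl1 (at least 1627-fold lower) and 12.1 CPM in each treated library, against 167 and 130 CPM in treated Col-0. RHS5 (-2.24), RHS11 (-2.15) and RHS17 (-2.82) kept 1.39 to 11 CPM in rhd6rsl1. The wall and RHS lists share 4 genes, and both were drawn up from knowledge of hair expression, so the 2 counts are not separate evidence.

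Genes of hair signalling and tip growth fell by widely differing amounts. Of 26, 20 fell, 2 rose and 4 were not called, with a median of -0.76, beside 11.5% lower and 10.8% higher over all loci. ERU, a receptor-like kinase of hair tip growth, had 38.8 and 39.9 CPM in untreated and 45.5 and 39.0 CPM in treated Col-0, no read in untreated rhd6rsl1 (at least 1042-fold lower) and 9.93 and 7.97 CPM in treated rhd6rsl1. The kinase AT2G41970 averaged -5.08 ± 0.11, the phosphatidylinositol transfer protein COW1 -4.56 ± 0.14, the proton pump AHA7 -4.13 ± 0.12, the kinesin MRH2 -3.67 ± 0.10 and GEF3, which marks the site where a hair will emerge, -2.95 ± 0.12. Genotypes did not overlap at any of these.

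Other members fell less. RHD2, the NADPH oxidase that makes reactive oxygen at the tip, had 89.8 to 104 CPM in Col-0 and 35.5 to 46.3 CPM in rhd6rsl1 (log2 -1.27 ± 0.08). The small GTPases ROP2 and ROP4 fell by 0.33 and 0.55, their regulator SCN1 by 0.76, and the actin gene ACT2 by 0.50, on the log2 scale. The calcium channel genes did not move together: CNGC9 fell by 1.78 and CNGC14 by 0.65, while CNGC5 (log2 0.22, adjusted p = 0.029) and CNGC6 (0.19, adjusted p = 0.036) rose, with overlapping libraries, and these 2 calls were lost in 4 and 5 of the 8 fits that left out a library. RHD3, FER, ROP6 and TRH1 were not called, with averages between -0.12 and 0.06.

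**Figure D3:**
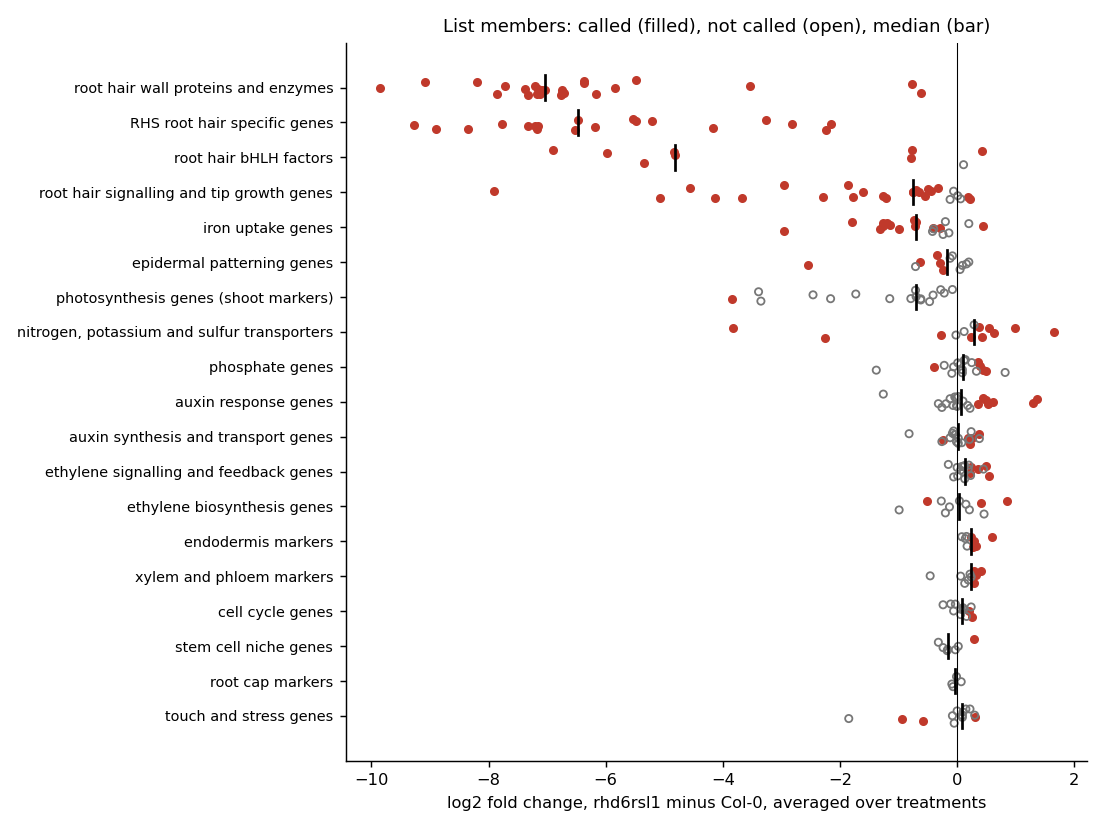
Averaged log2 fold change (x axis) of each tested member of the 19 gene lists (rows), filled where called and open where not, with a bar at the list's median. The wall (-7.03), RHS (-6.47) and bHLH (-4.81) medians lie far to the left, the signalling and iron lists are spread between -7.90 and 0.45, and the auxin, ethylene, endodermis and vascular lists lie close to 0.

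Of 1359 loci that were called, had at least 5 CPM on average and did not overlap between the genotypes, 773 were lower in rhd6rsl1, and the 12 with the largest fitted falls are named here with what the reference says of them. Of these, 9 had no read in a group of rhd6rsl1, and at the bound their averages lay between -8.47 and -7.03, so their order is not a measured one. GSTU14, a glutathione S-transferase, was first, with 33.2 and 35.8 CPM in untreated and 12.7 and 15.0 CPM in treated Col-0, 0.0489 and 0.130 CPM in untreated rhd6rsl1 and no read in treated rhd6rsl1 (at least 332-fold lower). AGD11 had 6.57 to 14.1 CPM in Col-0 and 3 reads in the 4 rhd6rsl1 libraries together, a 523-fold difference (95% counting interval 179 to 2541). The ABC transporter gene ABCA3 had 7.65 to 14 CPM in Col-0, no read in untreated rhd6rsl1 and 0.111 and 0.225 CPM in treated rhd6rsl1. AT2G47540, annotated as a protein of the pollen Ole e 1 and extensin family, had 64 to 73.6 CPM in Col-0, no read in untreated rhd6rsl1 (at least 1711-fold lower) and 6.68 and 7.24 CPM in treated rhd6rsl1. The others were XTH26, RHS12, RHS15, AT1G05240 and AT1G05250, described above, and AT1G61080, a hydroxyproline-rich glycoprotein, AT1G52660, a nucleoside triphosphate hydrolase, and AT2G06967, uncharacterised, which were 427-fold, 287-fold and 145-fold lower over the 4 libraries.

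Promoters of these genes were read from the TAIR10.1 reference at its own annotation, as the 250 bases before each gene's start, and searched on both strands for the core of the root hair element, a short DNA element of hair genes, which is spelled GCACGT and GCACGA or, with the other first base, TCACGT and also TCACGA. A bHLH site, the G-box CACGTG, was searched too, and it can overlap the core. A match is a description of letters and not a site of binding. Of the 12 largest falls, 5 hold a core (XTH26, RHS15, ABCA3, AT2G47540 and AT1G05250) and 7 hold none. Below are promoters chosen because they hold a core, those of RSL4 and 6 genes with large falls, and that of GSTU14, 1 of the 7 without. Cores are in capitals as they stand on the gene's strand, 5′ to 3′, so that a core on the other strand shows as its reverse complement.

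RSL4 (chr1:9654225-9654474, plus strand): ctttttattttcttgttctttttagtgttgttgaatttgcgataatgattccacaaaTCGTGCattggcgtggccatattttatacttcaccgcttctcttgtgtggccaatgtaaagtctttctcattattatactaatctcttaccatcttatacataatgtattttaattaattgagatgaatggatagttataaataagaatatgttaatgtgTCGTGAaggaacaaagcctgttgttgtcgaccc
EXPA7 (chr1:4276255-4276504, plus strand): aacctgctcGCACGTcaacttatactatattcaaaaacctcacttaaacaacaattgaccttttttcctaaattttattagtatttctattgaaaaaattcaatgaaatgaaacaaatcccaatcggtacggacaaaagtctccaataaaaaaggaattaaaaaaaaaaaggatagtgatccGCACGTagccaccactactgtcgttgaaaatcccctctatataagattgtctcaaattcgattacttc
PRP3 (chr3:23182472-23182721, plus strand): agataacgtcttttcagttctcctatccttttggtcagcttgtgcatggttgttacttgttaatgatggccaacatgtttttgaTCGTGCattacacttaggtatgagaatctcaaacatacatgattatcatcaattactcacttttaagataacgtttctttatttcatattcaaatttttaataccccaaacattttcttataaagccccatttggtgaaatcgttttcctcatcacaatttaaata
XTH26 (chr4:14244040-14244289, plus strand): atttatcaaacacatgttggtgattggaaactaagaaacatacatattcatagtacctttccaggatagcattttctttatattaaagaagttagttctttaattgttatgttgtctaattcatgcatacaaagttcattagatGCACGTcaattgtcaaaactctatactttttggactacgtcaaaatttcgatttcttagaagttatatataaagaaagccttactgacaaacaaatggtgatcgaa
RHS15 (chr4:12920492-12920741, plus strand): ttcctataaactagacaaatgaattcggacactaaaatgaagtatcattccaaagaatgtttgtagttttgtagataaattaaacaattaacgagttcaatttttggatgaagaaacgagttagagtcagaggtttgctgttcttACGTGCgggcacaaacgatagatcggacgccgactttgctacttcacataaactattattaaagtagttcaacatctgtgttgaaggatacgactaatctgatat
ABCA3 (chr3:17600271-17600520, plus strand): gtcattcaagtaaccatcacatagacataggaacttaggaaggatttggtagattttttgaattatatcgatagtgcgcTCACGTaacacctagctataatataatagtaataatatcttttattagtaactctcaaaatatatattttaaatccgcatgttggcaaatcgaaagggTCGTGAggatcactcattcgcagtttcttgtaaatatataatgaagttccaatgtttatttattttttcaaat
AT2G47540 (chr2:19505577-19505826, plus strand): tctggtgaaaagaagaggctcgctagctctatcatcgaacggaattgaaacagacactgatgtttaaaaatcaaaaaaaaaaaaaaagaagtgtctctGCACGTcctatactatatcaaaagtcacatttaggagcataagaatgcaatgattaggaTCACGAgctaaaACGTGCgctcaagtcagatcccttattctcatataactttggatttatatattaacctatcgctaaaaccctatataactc
GSTU14 (chr1:9427554-9427803, plus strand): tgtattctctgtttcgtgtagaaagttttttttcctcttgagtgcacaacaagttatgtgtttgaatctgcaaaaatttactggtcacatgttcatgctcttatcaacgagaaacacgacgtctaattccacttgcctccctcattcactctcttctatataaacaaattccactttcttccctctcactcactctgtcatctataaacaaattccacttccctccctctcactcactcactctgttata

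A core stood in 18.3% of the 22056 promoters that could be read. It stood in 35.2% of the promoters of loci that fell at least 4-fold (168 of 477) and in 19.1% of those that rose at least 2-fold (31 of 162). Among the lists, 14 of 25 wall genes held a core, as did 10 of 19 RHS genes, 9 of 20 iron uptake genes, 7 of 26 hair signalling genes, 3 of 17 photosynthesis genes and 1 of 9 bHLH genes, RSL4. The full root hair element, a longer pattern around the core that was searched after the data had been seen, stood in 0.793% of all promoters. Among loci that fell at least 4-fold the share was 6.08%. By list, the full element stood in 8 of 19 RHS, 6 of 25 wall, 0 of 26 hair signalling, 0 of 20 iron and 0 of 9 bHLH promoters. EXPA7, PRP3, RHS15 and ABCA3 above hold it. The RHS genes were first collected partly by that element, so their share is no independent observation. All 19 RHS genes are among the loci that fell at least 4-fold, and some are wall genes. The shares of those 2 sets are thus in part not independent either. The G-box stood in 7.08% of all promoters and in 5.45% of those of loci that fell at least 4-fold.

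Many genes of iron uptake, which in Arabidopsis roots runs through the epidermis, fell in rhd6rsl1. Of 20 iron genes 13 fell, 1 rose and 6 were not called, with a median of -0.71, beside 11.5% lower and 10.8% higher over all loci. IRT2, a relative of the main iron transporter, had 33.3 and 50.9 CPM in untreated and 82.1 and 69.9 CPM in treated Col-0, against 3.3 and 5.37 CPM in untreated and 11.4 and 13.5 CPM in treated rhd6rsl1 (log2 -2.95 ± 0.14, adjusted p = 2.2e-11). IRT1, the main transporter, had 820 to 1161 CPM in Col-0 and 560 to 657 CPM in rhd6rsl1, and the ferric reductase FRO2 had 512 to 815 and 336 to 438 CPM. Genotypes did not overlap at any of the 3.

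The regulators of iron uptake went in different directions. The iron-deficiency bHLH genes BHLH38 (-1.79 ± 0.15), BHLH39 (-1.14 ± 0.14), BHLH100 (-1.31 ± 0.22) and BHLH101 (-1.27 ± 0.17) fell without overlap. Their partner FRU, also known as FIT, rose, from 59.5 to 77.8 CPM in Col-0 to 86.0 to 115 CPM in rhd6rsl1 (log2 0.45 ± 0.08, adjusted p = 0.00028), again without overlap. PYE, another bHLH regulator, was not called (-0.24 ± 0.10, adjusted p = 0.11), and BTS, a ubiquitin ligase that restrains the response, fell by 0.30.

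Transporters of other nutrients split, beside 10.8% higher and 11.5% lower calls over all loci. Of 13 tested for nitrogen, potassium and sulfur (3 of 16 were below the filter on low counts), 7 rose and 3 fell, with a median of 0.29. SULTR1;1, a high-affinity sulfate transporter, had 17.0 to 25.7 CPM in Col-0 and 0.778 to 2.56 CPM in rhd6rsl1 (log2 -3.83 ± 0.17), and HAK5, a high-affinity potassium transporter, had 5.31 to 23.4 and 1.44 to 2.52 CPM (-2.25 ± 0.19). Neither overlapped. On the upper side, the nitrate transporter NRT1.1 had 207 to 273 CPM in Col-0 and 428 to 570 CPM in rhd6rsl1 (0.98 ± 0.09, adjusted p = 4e-07), and NRT2.1 had 4.09 to 7.88 and 11.2 to 25.6 CPM (1.65 ± 0.24, adjusted p = 7e-05). AKT1, a potassium channel, and AMT1;3, an ammonium transporter, rose by 0.38 and 0.63. Of 18 phosphate genes 4 rose and 1 fell, with a median of 0.11. PHT1;4 and PHO1, a phosphate importer and the exporter to the xylem, rose by 0.50 and 0.45. Without Col-0_ethylene replicate 1, 7 phosphate genes rose and 0 fell, and DESeq2 on all libraries called 5 and 0.

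The 12 largest rises among the 586 loci that were higher without overlap were smaller than the falls, from 1.17 to 2.53 on the log2 scale. GSTF14, a glutathione S-transferase, had 1.32 to 2.54 CPM in Col-0 and 5.24 to 18.7 CPM in rhd6rsl1, and MYB112, a MYB factor, 1.05 to 2.41 and 6.61 to 11.4 CPM. SWEET11, a sucrose transporter, had 22.3 and 16.1 CPM in untreated and 6.21 and 5.19 CPM in treated Col-0, against 41.6 and 47.0 CPM in untreated and 36.0 and 33.5 CPM in treated rhd6rsl1. FSD1, the iron superoxide dismutase, had 238 to 287 CPM in Col-0 and 617 to 715 CPM in rhd6rsl1 (log2 1.33 ± 0.06, adjusted p = 1.5e-11).

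Of the remaining rises, DUR3, a urea transporter, and NRT2.1 take up nitrogen. AT2G37130 and AT5G15180 are peroxidases, the former abundant at 613 to 703 CPM in Col-0 and 1361 to 1673 CPM in rhd6rsl1. Grouped by annotation after the values had been seen, 20 of 62 peroxidases tested rose and 14 fell, beside 10.8% and 11.5% over all loci. Of these falls 6 were at least 4-fold, and the median over the family was 0.11. The others of the remaining rises were CYP702A5 (1.37), AT1G67148 (1.61), AT3G59710 (1.26) and the receptor-like kinase AT5G39000 (1.17).

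Hormone genes had medians close to that of all loci. Their counts stand beside 10.8% higher and 11.5% lower calls over all loci. Of 22 auxin response genes 8 rose and 0 fell (median 0.06), also 8 and 0 by DESeq2 and 10 and 0 at an unadjusted p below 0.05. GH3.2, an enzyme that conjugates auxin, had 23.7 and 23.9 CPM in untreated and 90.8 and 93.9 CPM in treated Col-0 against 63.3 and 70.0 CPM in untreated and 192 and 245 CPM in treated rhd6rsl1 (1.36 ± 0.09). It was higher in rhd6rsl1 within each treatment, and the genotypes overlapped only across treatments. LBD29, a factor of lateral root initiation, had 1.42 to 2.03 CPM in Col-0 and 3.01 to 5.75 CPM in rhd6rsl1, without overlap. Of 19 genes of auxin synthesis and transport 4 rose and 1 fell (median 0.02), with PIN7 at 0.38 the largest rise.

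Of 19 genes of ethylene signalling 5 rose and 0 fell (median 0.13), against 6 and 0 by DESeq2 and 8 and 0 at an unadjusted p below 0.05. Those that rose were the receptors ETR2 (0.35) and ERS1 (0.23), EIN3 (0.22), ARL (0.50) and the transcription factor RAV1 (0.54). EIN3 had 148 to 157 CPM in Col-0 and 165 to 185 CPM in rhd6rsl1. Of 11 genes of ethylene synthesis tested (1 of 12 was below the filter), 2 rose and 1 fell, and the median was 0.04. Over all loci 10.8% were called higher and 11.5% lower. The ACC-oxidase-like locus AT1G12010 rose by 0.85, and ACS7, an ACC synthase, fell by 0.51 on the log2 scale.

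Some markers of inner tissues rose in rhd6rsl1. The averaged counts here stand beside 10.8% higher and 11.5% lower calls over all loci. Of 9 endodermis markers 5 rose and 0 fell (median 0.23; also 5 and 0 by DESeq2, and 6 and 0 at an unadjusted p below 0.05). Within rhd6rsl1 against Col-0, the endodermal calls came with ethylene, where 7 of 9 rose (median 0.49), beside 13.0% higher over all loci. Without ethylene edgeR's test called none (median -0.04), beside 6.99% higher and 6.98% lower. There 2 of 9, CASP2 (-0.26) and ESB1 (0.26), were at an unadjusted p below 0.05. The difference between treatments was called higher at 6 of 9, beside 8.59%. In ein3eil1rhd6rsl1 against ein3eil1, averaged over treatments, all 9 rose (median 0.37), beside 11.7% higher over all loci. Of 10 xylem and phloem markers 4 rose and 0 fell in the average of rhd6rsl1 against Col-0 (median 0.23, with 5 and 0 by DESeq2, and 6 and 1 at an unadjusted p below 0.05). The endodermis markers summed to 782 and 795 CPM in untreated and 655 and 605 CPM in treated Col-0, and to 806 and 822 CPM in untreated and 764 and 904 CPM in treated rhd6rsl1. The vascular markers summed to 440 to 489 CPM in Col-0 and 515 to 614 CPM in rhd6rsl1, so the vascular sums did not overlap and the endodermal ones did. Their part in the other results was not tested. Root cap markers (0 of 4 called), cell cycle genes (2 of 12 rose), stem cell niche genes (1 of 7 rose) and touch and stress genes (1 of 13 tested rose and 2 fell) had medians from -0.16 to 0.09. No root cap marker passed an unadjusted p below 0.05 or DESeq2. The 17 photosynthesis markers had a median of -0.71, and edgeR's test called 1, PETE1, a plastocyanin. Without Col-0_ethylene replicate 1, whose high sum is given above, PETE1 was not called (adjusted p = 0.19) and 0 of 17 fell, while without the filter on low counts 16 fell.

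The untreated and the ethylene contrast, which the average joins, gave different numbers of calls. Without ethylene 3115 loci were called (14.0%), 1556 of them lower (6.98%) and 1559 higher (6.99%). With ethylene 6313 were called (28.3%), 3417 lower (15.3%) and 2896 higher (13.0%). The lean to falls under ethylene depended on the fit. DESeq2 called 3136 lower and 3151 higher, and edgeR with DESeq2's size factors called 3166 lower and 3206 higher. Of the 2565 loci that fell in the average, 858 were called lower in both, 271 only without and 1214 only with ethylene. Of the 2404 that rose, 518 were called higher in both, 476 only without and 1146 only with ethylene. Being called in only 1 contrast does not by itself show that a locus differed between treatments. The 2 contrasts had opposite signs at 331 of the falls and 304 of the rises. Across all 22304 loci the log2 fold changes of the 2 contrasts, which share no library, correlated at r = 0.55. The number called without ethylene went down when any 1 untreated library of Col-0 or rhd6rsl1 was left out. That leaves 1 library in a group, and the drop was largest without replicate 1 of untreated rhd6rsl1.

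Tested directly, the contrast differed between treatments at 4015 loci (18.0%), 1916 with a higher (8.59%) and 2099 with a lower value (9.41%) under ethylene. DESeq2 called 2177 higher and 1985 lower, so the lean to lower values was not kept. In this difference the letters S and Z enter doubled, so a treatment effect and a letter effect cannot be told apart. Of 25 wall genes 21 had a smaller fall under ethylene and 1 a larger one, the peroxidase AT4G26010, and the medians were -9.82 without and -3.88 with ethylene. In CPM, EXPA7 was at 26.4 and 28.9 in treated rhd6rsl1 against 0 and 0.0518 in untreated rhd6rsl1. Of the 478 loci that fell at least 4-fold in the average, 143 had a smaller and 40 a larger fall under ethylene by this test.

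Some hair genes stayed low in the treated libraries labelled rhd6rsl1. RSL2 had at most 0.197 CPM there, RHS6 at most 0.0845 CPM, XTH26 at most 0.776 CPM and GSTU14 none. The difference between treatments was not called at any of these 4. Among loci named for a larger fall under ethylene, AT3G21340, a leucine-rich repeat kinase, had 21.4 and 24.1 CPM in untreated and 16.4 and 14.1 CPM in treated Col-0, and 10.7 and 9.07 CPM in untreated and 0.277 and 0.394 CPM in treated rhd6rsl1. AT3G28865, an uncharacterised locus, changed sides, at 34.6 and 48.8 CPM against 277 and 291 CPM without ethylene and 126 and 143 CPM against 49.7 and 22.4 CPM with it, and was not called in the average.

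**Figure D4:**
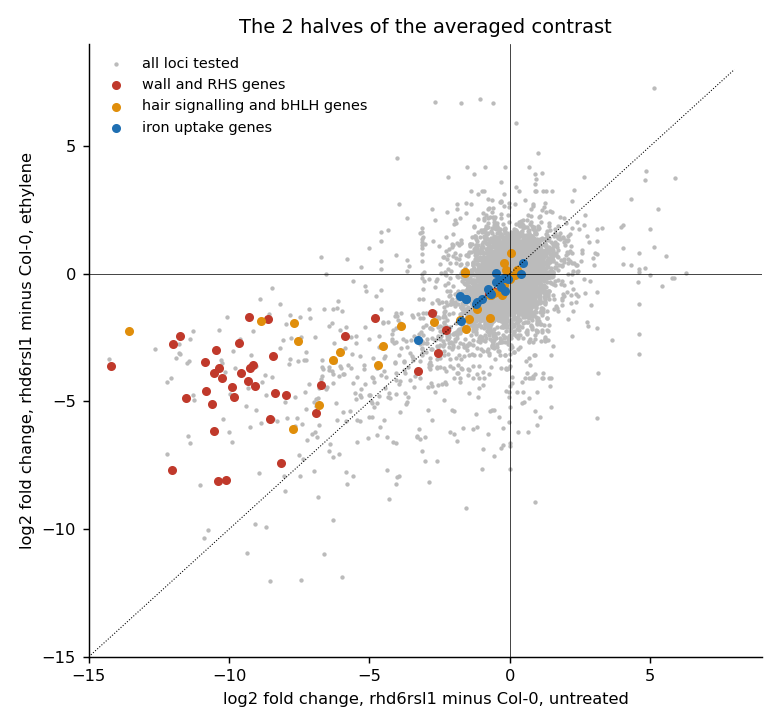
Log2 fold change of rhd6rsl1 against Col-0 with ethylene (y axis) against that without (x axis) for the loci tested, coloured as in the plot by level, with a dotted line where both are equal. Most wall and RHS genes lie above the line at the lower left, at -9.82 without and -3.88 with ethylene in the median of the wall list, and the iron genes lie along the line.

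The same 2 mutations in plants without EIN3 and EIL1 were compared in the other 8 libraries. Averaged over treatments, ein3eil1rhd6rsl1 differed from ein3eil1 at 5030 loci (22.6%), 2611 higher (11.7%) and 2419 lower (10.8%). Of the loci that fell in rhd6rsl1 61.8% also fell here (1586 loci, 65.6% of those that fell here), and of those that rose 62.2% also rose (1495 loci, 57.3%). Among the 478 loci that fell at least 4-fold, 395 also fell here (82.6%). Across all loci the 2 averages, which share no library, correlated at r = 0.77. Replicate 1 of treated ein3eil1rhd6rsl1 stood apart, with 14.7 CPM summed over the 6 hair markers against 0.799 CPM in replicate 2, and 1630 against 330 CPM of photosynthesis markers. Without it 388 of the 478 also fell (81.2%).

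The hair lists fell in both backgrounds. All 19 RHS genes and 24 of 25 wall genes fell in ein3eil1rhd6rsl1 against ein3eil1, the exception being LRX2 (log2 -0.03, not called), and the wall median was -7.92. In that contrast 10.8% of all loci were called lower. Of 20 iron genes 10 fell, with BHLH38 at -0.50 and BHLH39 not called at -0.37, and for BHLH38 the backgrounds differed (difference -1.29).

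Tested directly, the averaged contrast differed between backgrounds at 316 loci (1.42%), 226 with a lower (1.01%) and 90 with a higher value (0.404%) where EIN3 and EIL1 were present. Without ein3eil1rhd6rsl1_untreated replicate 1 there were 670, 331 lower and 339 higher, with no lean to lower values. The number was 511 by DESeq2 and 874 without the filter on low counts. Of the 25 wall genes 3 were among the 316. Of the 19 RHS genes 3 were, all with a higher value where EIN3 and EIL1 were present. The list counts include replicate 1 of treated ein3eil1rhd6rsl1, with 14.7 CPM of hair markers against 0.799 CPM in replicate 2. How far this limits the test at hair genes was not tested. COBL9 fell further without the 2 factors (difference 1.43), and LRX2 and AT4G26010 fell further with them (-0.59 and -0.53). Of 26 hair signalling genes 5 were among the 316. AT2G41970 (2.66), GEF3 (1.48) and COW1 (1.40) fell further without the 2 factors, and MRH1 (-0.76) and PCaP2 (-0.85) fell further with them. LRL3 (2.4) and SULTR1;1 (2.16) also fell further without them, and OPT3, an oligopeptide transporter gene of the iron list, fell further with them (-0.97). The nitrogen genes NRT2.1 and DUR3 rose with EIN3 and EIL1 and were not called without them (log2 -0.59 and -0.06), and the differences of 2.24 and 1.29 were called.

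**Figure D5:**
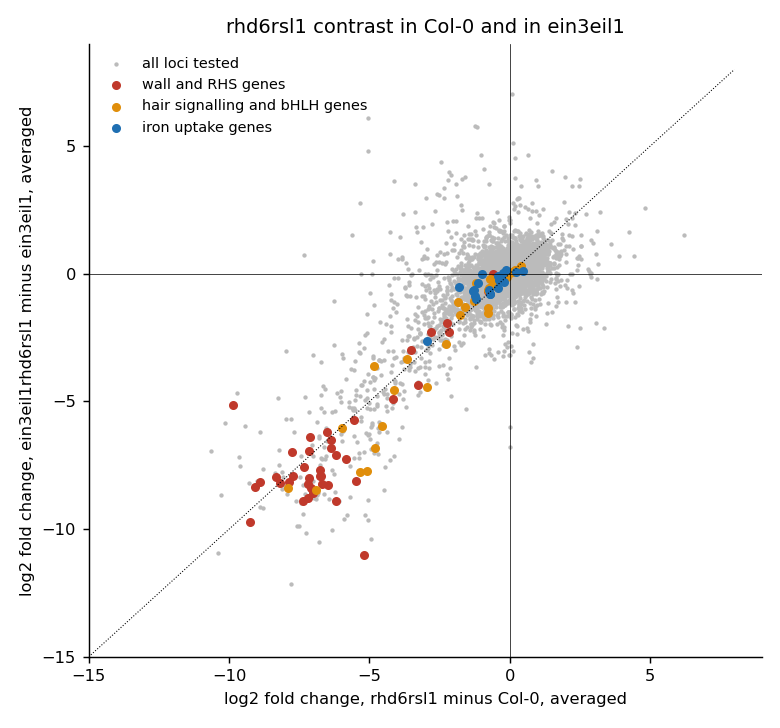
Averaged log2 fold change of ein3eil1rhd6rsl1 against ein3eil1 (y axis) and of rhd6rsl1 against Col-0 (x axis) for the loci tested, coloured as in the plot by level. The wall and RHS genes lie mostly at the lower left, scattered about the dotted line of equality. Their fitted differences between backgrounds ran from -4.73 to 2.73 (wall) and from -0.8 to 5.82 (RHS). Over all loci r was 0.77.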

How the data were processed

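RNA was measured by sequencing of mRNA from 16 root samples (paired reads on a HiSeq 2000, per the labels' protocols), and BWA 0.7.7 and TAIR 10 are named in the submitters' processing notes. The authors deposited raw counts for each transcript model, per the file headers. How reads were counted, with which strand setting, and where shared reads went has no statement in the labels. Counts of 39640 models were summed to 33518 loci. edgeR 4.0.16 in R 4.3.3 (TMM scaling, filterByExpr, quasi-likelihood test) was fitted with 8 group means over all 16 libraries, the Benjamini-Hochberg method adjusted the p-values of 22304 loci, and loci below 0.05 were called. Standard errors were derived from each log2 fold change and its F statistic. DESeq2 1.42.0 was an alternative. The steps were tested on simulated data. Beyond list members, the text names the 12 largest falls and rises among called loci with at least 5 CPM and no overlap, and 3 each way for each difference of contrasts. Members and lists were chosen with earlier results of these data known. A group without reads was set at 3 reads for bounds. Intervals are 95% and cover counting error only. The labels call the 2 replicates of a group biological and name no separate plants, so p-values measure the spread between these samples. A single list member is not reported here by name.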

Additional observations from a re-analysis of the deposited data

Results flagged for a closer look

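The averaged contrast differed between plants with and without EIN3 and EIL1 at 316 loci by the test of the difference itself. The log2 differences, with minus without the 2 factors, were -5.01 for AT5G19250, -3.47 for AT3G18450 and -3.03 for SQP2 at the lower end, and 5.46 for AT2G34910, 4.29 for TET12 and 3.03 for GH9C1 at the upper end. AT5G19250 had 48.0 to 86.4 CPM in Col-0 and 64.9 to 70.4 CPM in rhd6rsl1. By edgeR's test its average between these genotypes was not called (log2 0.11, adjusted p = 0.26). The calls of AT2G34910 (adjusted p = 0.094) and TET12 (0.13) were lost without rhd6rsl1_untreated replicate 1, and that of GH9C1 (0.25) without replicate 2 of that group. Among genes named for the average, the differences were -5.06 for AT1G61080, 1.43 for GSTF14, -1.23 for MYB112, 2.24 for NRT2.1, 0.71 for FSD1, 1.29 for DUR3 and 0.57 for RHD6. That of AT1G61080 was -2.30 (adjusted p = 1) without ein3eil1rhd6rsl1_ethylene replicate 1.

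The contrast differed between treatments at 4015 loci, where treatment and the letters in the file codes cannot be told apart. The log2 differences, ethylene minus untreated, were -4.67 for AT3G28865, -4.29 for AT3G21340 and -4.06 for AT3G50130. They were 11.32 for ERU, 10.94 for AT2G47540 and 10.59 for RHS12, fitted values that are no bounds, since neither untreated rhd6rsl1 library had a read of these 3 genes.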

How the results depend on the processing

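All 24 largest changes and all 40 wall and RHS genes kept their direction and call under the settings in which they were tested, as did 236 of the 308 genes named or listed, and no called direction reversed. The share of higher calls was 48.4% in the reported fit and ranged from 48.0% (replicate block) to 56.8% (without rhd6rsl1_ethylene replicate 1), with 50.9% by DESeq2 and 53.0% with library totals. Asking for a 2-fold change left 974 loci in the average. The difference between backgrounds rose to 874 loci without a filter on low counts (303 higher, 571 lower) and to 511 with DESeq2 (161 and 350), and the cause was not tested. The replicate numbers gave no pairing (6 pairs of groups, r -0.06 to 0.14, 1 over 0.1), and a replicate block gave 4809 calls in the average. Fits that left out a library, where a lone sample is assumed to vary like the other groups, gave the following ranges. Falls in the average ranged from 1659 to 2208. The untreated contrast ranged from 1360 to 2298 calls (553 to 1167 higher, 807 to 1131 lower), with the lowest without rhd6rsl1_untreated replicate 1. Falls in the ethylene contrast ranged from 2062 to 2419, the lowest without rhd6rsl1_ethylene replicate 1. The difference between treatments ranged from 2229 to 3401 (1140 to 1677 higher, 1089 to 1724 lower), the lowest without Col-0_untreated replicate 1. The contrast without EIN3 and EIL1 ranged from 3203 to 5261 (1621 to 2632 higher, 1566 to 2654 lower), the lowest without ein3eil1_untreated replicate 1. The difference between backgrounds ranged from 220 to 670 (60 to 339 higher, 152 to 331 lower), the highest without ein3eil1rhd6rsl1_untreated replicate 1. Genes with few reads in rhd6rsl1 are limited by depth, so their folds are bounds or wide intervals.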

Other observations

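Gene families were grouped by the reference's annotation after the values had been seen, and are given as counts with no test, beside 11.5% lower and 10.8% higher calls over all loci. Of 46 extensin-like genes tested 18 fell and 7 rose, 13 of the falls being at least 4-fold, with a median of -0.29. Of 24 expansins 3 fell and 8 rose (median 0.14), and of 24 xyloglucan enzymes 5 fell and 5 rose (median 0.04). Pectin methylesterases and their inhibitors were grouped together, and of these 64 genes 2 fell and 16 rose. Of 53 glutathione S-transferases 13 fell and 6 rose, with GSTU14 and GSTF14 at opposite ends of the loci named for size. Of 31 jacalin lectins 10 fell and 8 rose.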
